A study of Mus musculus with 158 samples.

Results

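The hairpins described here target 5 genes known for expression mainly in testis, hair or striated muscle: Spert, Ccdc63, Magea6, Krtap5-4 and Xirp2. All hairpins annotated to these genes were taken, whatever their values, and each was read in the libraries of its own pool, relative to the other targeting hairpins there. They number 19 of 1000 targeting hairpins and stand for 5 of 285 target genes, with 4 hairpins per gene except Magea6, which has 3. In the study, short hairpin RNAs (shRNAs) were carried by virus into PDA530 Met cells, a mouse pancreatic adenocarcinoma line from a liver metastasis, in 19 pools. Every arm shares the infection, at an MOI of 0.3, and the selection, 4 days in puromycin at 3 µg/ml. Cells were then pelleted (day 0), kept in culture for 28 days, or injected into the tail vein of 3 mice per pool, whose lung tumours were collected after 28 days and pooled within each mouse. Hairpins were amplified from genomic DNA and sequenced, and a hairpin's share of reads is taken for the share of cells that carry it. The labels name no strain, age or sex of the mice, and the cells are 1 line.

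A short hairpin RNA is cut by Dicer into a small duplex, 1 strand of which guides the silencing complex to transcripts that pair with it. A hairpin can also repress transcripts that pair only with the seed near the guide's 5′ end, so hairpins against 1 gene share their intended target but not their other targets. Spert, now named Cby2, encodes a spermatid protein of the Chibby family, and Ccdc63 encodes a coiled-coil protein needed to build the sperm flagellum. Magea6 belongs to the MAGE cancer/testis genes, which are silent in most adult tissues outside the germ line and are switched on again in some tumours. Krtap5-4 encodes a keratin-associated protein of the hair shaft, and Xirp2 encodes a Xin-repeat protein that binds actin in heart and skeletal muscle. No RNA or protein was measured in this experiment. Whether PDA530 Met cells express any of the 5 genes, and how far each hairpin lowers its transcript, was not tested.

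The 7 pools that hold these hairpins had 21 day 0 libraries of 4646562 to 13226329 reads, 18 culture libraries of 4525346 to 26068466 reads and 18 lung libraries of 1285372 to 9448986 reads. Pool 13, with the 3rd Magea6 hairpin, is used here at day 0 only. Some of these libraries stood apart. In lung library 10C, control hairpins took 99.2% of reads and the pool's own hairpins 0.0344%, or 1946 reads, so that a count of 0 there allows a share of up to 1542 CPM (counts out of 1000000 targeting reads of the pool, here without further scaling). Reads of other pools made up 18.8% of lung library 17A, 15.3% of culture library 16/17A and 3.16% of lung library 17B. Changes of single hairpins in lungs against day 0 and in culture against day 0 that rest on 10C, 17A or 16/17A are given with and without them. Cultures of pools 2, 10, 11, 17 and 18 were sequenced as mixtures of 2 pools, and pool 10 had 6 culture libraries, 3 mixed with pool 9 and 3 with pool 11. The labels do not say whether these 6 came from separate cultures of pool 10, and the fits took them as separate. Control reads of a mixture come from both pools, so scaling to control totals lowers the hairpins of each pool in these cultures. How the values deposited by the authors were scaled is not stated, so the same may hold for them. Lungs are from separate mice and the cultures were in triplicate, but nothing says that the day 0 libraries came from separate cultures. P-values against day 0 may therefore rest partly on technical spread.

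The starting levels of the 19 hairpins covered a wide range. Levels below are CPM scaled with TMM factors over the libraries of a pool. Mean levels at day 0 were 30551 and 28503 CPM for the Magea6 hairpins of pool 2, and 27156, 22596 and 23807 CPM for 3 of the 4 Xirp2 hairpins. At the other end were 3 of the 4 Krtap5-4 hairpins. TRCN0000098413 was the least abundant of the 51 targeting hairpins of pool 10, at 77.1 CPM, and TRCN0000098414 ranked 49th, at 217 CPM, in a pool with a median of 10399 CPM. TRCN0000436596 ranked 50th of 53 in pool 18, at 380.3 CPM. If reads at day 0 are in proportion to cells, and each mouse received 500000 cells, a mouse received about 40.2, 113 and 166 cells with these 3 hairpins, against 14003 cells with the most abundant hairpin, TRCN0000112730 of Magea6.

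Compared with the starting cells, 5 of the 18 hairpins that could be tested differed in lung tumours, 1 higher and 4 lower, against 33.8% of the 891 hairpins tested over all pools (14.7% higher and 19.1% lower). The test was limma on log2(CPM + 1), with Benjamini-Hochberg adjustment over all hairpins and a threshold of 0.05. One Xirp2 hairpin rose, and 1 of Spert, 2 of Ccdc63 and 1 of Krtap5-4 fell. The median log2 fold change of the 18 was -0.80, beside -0.13 for all hairpins tested, and 12 of 18 lay below 0, beside 55.2% of all. Without 10C and 17A the median of the 18 was again -0.80, and 12 lay below 0. The scale moves these medians. Scaled to the control hairpins, the median of all hairpins was -0.57, and 7 of the 18 differed, 3 of them higher, beside 234 of 891 hairpins, 108 of them higher. The count also rested on the day 0 libraries: without replicate A, B or C of day 0 it was 2 in each case, namely TRCN0000215801 of Xirp2 and TRCN0000198891 of Spert. The count over all hairpins fell as well, from 301 to 148, 154 and 160 of 891.

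In culture, 9 of 18 hairpins differed from day 0, 2 higher and 7 lower, against 60.6% of 945 hairpins over all pools (28.8% higher and 31.9% lower). One hairpin each of Magea6 and Xirp2 rose. The 7 that fell were 2 each of Spert, Ccdc63 and Xirp2 and 1 of Magea6, while none of Krtap5-4 passed the test. The median was -0.47, beside -0.10 for all, and 14 of 18 lay below 0, beside 53.1% of all. The split moved with the scale. With DESeq2 size factors in place of TMM, 3 of 9 were higher, beside 282 of 562 over all hairpins. With control totals 2 of 14 were higher, beside 100 of 622, and with the deposited values 2 of 14, beside 130 of 631. In mixed cultures control totals count the controls of 2 pools, which lowers the culture levels on that scale. With the total of the pool's targeting hairpins, which leaves the controls out, 2 of 13 were higher, beside 163 of 615. Without culture 16/17A the median of the 18 was -0.40.

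In lungs against culture, 6 of 18 hairpins differed, 3 higher and 3 lower, against 24.9% of 889 hairpins (11.6% higher and 13.3% lower). One hairpin each of Spert, Magea6 and Xirp2 was higher in lungs, and 1 each of Spert, Magea6 and Krtap5-4 was lower. The median was -0.74, beside -0.11 for all. The split depended on the scale. With control totals 5 of 6 were higher, beside 212 of 257 over all hairpins, and with the deposited values 5 of 6, beside 137 of 226. In mixed cultures control totals count the controls of both pools, which lowers the culture levels and so raises lungs against culture on that scale. With the total of the pool's targeting hairpins, which leaves the controls out, 4 of 7 were higher, beside 108 of 242. Without 10C and 17A the median of the 18 was again -0.74. Over the 3 comparisons, 11 of the 18 hairpins passed the test at least once and 7 never did, beside 636 of the 889 hairpins tested in all 3 (71.5%) that passed at least once. These comparisons share their libraries pairwise, so they are not independent of each other.

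Spert was targeted by 4 hairpins, all in pool 12, whose cultures were sequenced unmixed. TRCN0000198891 gave the lowest change in lungs of the 53 hairpins of its pool. Its level was 13804, 12809 and 14744 CPM at day 0, and 7829, 12017 and 9690 CPM in culture. In lungs it was at 897, 1237 and 498 CPM. All 3 mice lay far below every day 0 and culture library, while the cultures lay just below day 0 without overlap. The log2 fold change was -4.09 in lungs against day 0 (SE 0.38; limma adjusted p = 0.000138) and -3.44 against culture (SE 0.50; limma adjusted p = 0.000664). In culture against day 0 it was -0.51 (SE 0.16; limma adjusted p = 0.0114), which did not pass without day 0 replicate C (-0.46; limma adjusted p = 0.0668).

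The other Spert hairpins did not pass the test in lungs against day 0. TRCN0000198963 was at 2268, 1499 and 2901 CPM at day 0 and at 835, 996 and 1040 CPM in culture. Lung levels were 1968, 2499 and 4209 CPM. Its 3 cultures lay below all other libraries, and lungs and day 0 overlapped. It fell by 1.17 on the log2 scale in culture (SE 0.44; limma adjusted p = 0.0258) and was higher in lungs than in culture by 1.65 (SE 0.52; limma adjusted p = 0.0383). Lungs against day 0 gave 0.34 (limma adjusted p = 0.569). Both calls depended on single libraries. The first was lost without day 0 replicate A (-1.21; limma adjusted p = 0.104) or C (-0.95; limma adjusted p = 0.170). The second was lost without culture replicate A, B or C (1.55, 1.69 and 1.77; limma adjusted p = 0.0888, 0.0939 and 0.109) and without lungs replicate B or C (1.66 and 1.34; limma adjusted p = 0.0547 and 0.141), as well as with 1 variance prior over all pools (limma adjusted p = 0.0544).

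TRCN0000178215 and TRCN0000178249 passed no test under the main settings. TRCN0000178215 was at 7282, 5994 and 8331 CPM at day 0, at 7271, 10842 and 12547 CPM in culture and at 4419, 3833 and 5196 CPM in lungs. The mice lay below every day 0 and culture library, but the change from day 0 was -0.70 (SE 0.28; limma adjusted p = 0.0757) and from culture -1.04 (SE 0.36; limma adjusted p = 0.0566). Culture against day 0 gave 0.48 (SE 0.22; limma adjusted p = 0.0677). Each of these 3 values passed under some alternatives: in lungs with pool totals (-0.90, limma adjusted p = 0.0334) and without lungs replicate C (-0.79, limma adjusted p = 0.0273), and in culture without culture replicate A (0.67, limma adjusted p = 0.00126) and with DESeq2 size factors (0.53, limma adjusted p = 0.0478). With pool totals culture against day 0 turned to -0.027 (limma adjusted p = 0.938). Lungs against culture passed without culture replicate A (-1.28, limma adjusted p = 0.0432), without lungs replicate C (-1.15, limma adjusted p = 0.0481) and without the variance trend (limma adjusted p = 0.0468). In DESeq2 both culture against day 0 (0.55) and lungs against culture (-0.98) passed, with Benjamini-Hochberg adjusted p = 0.0360 and 0.0339. TRCN0000178249 ranged from 2871 to 4067 CPM at day 0 and from 3860 to 6180 CPM in lungs, a change of 0.48 (limma adjusted p = 0.276). The 4 Spert hairpins thus gave -4.09, -0.70, 0.34 and 0.48 in the same mice.

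Ccdc63 was targeted by 2 hairpins in pool 11 and 2 in pool 17. In lungs all 4 changes from day 0 were below 0, except that TRCN0000216412 turned to 0.067 with control totals and to 0.063 without lungs replicate A, and in culture all 4 were below 0 under every scaling. In pool 11, TRCN0000192958 was at 8183, 7588 and 7070 CPM at day 0 and at 6188, 3714 and 4883 CPM in culture. Mice A, B and C gave 5046, 3710 and 3575 CPM. Lungs and cultures both lay below day 0 and overlapped each other. It fell by 0.90 in lungs (SE 0.20; limma adjusted p = 0.0187), with -0.36 in culture (SE 0.19; limma adjusted p = 0.0820). The fall in lungs did not pass without day 0 replicate A, B or C (-0.85, -0.91 and -0.96; limma adjusted p = 0.0907, 0.0992 and 0.0696), nor with control totals (-0.63; limma adjusted p = 0.0886).

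TRCN0000216412 of Ccdc63, in the same mice and cultures, was at 5818, 6470 and 6799 CPM at day 0. In culture it was at 3541, 2019 and 1805 CPM, below all day 0 and lung libraries. In lungs it was at 4355, 6014 and 6343 CPM, which overlapped day 0. It fell by 1.14 in culture (SE 0.23; limma adjusted p = 8.78e-06), while lungs against day 0 gave -0.21 (SE 0.21; limma adjusted p = 0.482). Lungs against culture gave 1.01 (SE 0.39; limma adjusted p = 0.0832). That value passed without culture replicate A (1.58; limma adjusted p = 0.0246) and without lungs replicate A (1.39; limma adjusted p = 0.0229). It also passed with DESeq2 size factors (1.29), pool totals (1.35), the deposited values (1.67) and control totals (1.90), and in DESeq2 (1.27). The contrast between these 2 hairpins in culture depended on the scale. TRCN0000192958 also passed there with pool totals (-0.95; limma adjusted p = 1.06e-05), control totals (-1.06; limma adjusted p = 0.000801) and the deposited values (-1.02; limma adjusted p = 0.000248), and without culture replicate A (-0.53; limma adjusted p = 0.0122).

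In pool 17 the levels of both Ccdc63 hairpins differed widely between mice. TRCN0000246366 was at 3463, 3796 and 4523 CPM at day 0 and at 1028, 883 and 1631 CPM in culture. The lung libraries gave 1672, 88.9 and 195 CPM. Mouse A was near the cultures, and mice B and C were below every other library. It fell by 3.66 in lungs (SE 1.13; limma adjusted p = 0.0452) and fell by 1.58 in culture (SE 0.38; limma adjusted p = 0.00127), and the change was -1.40 without culture 16/17A (limma adjusted p = 0.000174). Without lung library 17A the change in lungs was -4.79 (limma adjusted p = 0.00195) and lungs against culture passed the test at -3.30 (limma adjusted p = 0.0160). With 17A, lungs against culture was -2.04 (limma adjusted p = 0.260). The call against day 0 was lost in edgeR's quasi-likelihood test on recovered reads (-2.59; Benjamini-Hochberg adjusted p = 0.121), without day 0 replicate A, B or C (limma adjusted p = 0.128, 0.139 and 0.142) and without lungs replicate B or C (-2.77 and -3.27; limma adjusted p = 0.0770 and 0.104).

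TRCN0000246364, the other Ccdc63 hairpin of pool 17, was lowest in mouse A, where TRCN0000246366 was highest. It was at 1100, 1080 and 1308 CPM at day 0 and at 629, 696 and 785 CPM in culture. In lungs it was at 4.27, 309 and 440.1 CPM, with only 7 reads in mouse A. All 3 mice lay below all cultures and all cultures below day 0. The change in lungs was -3.70 with a wide error (SE 1.72; limma adjusted p = 0.141). Without 17A it was -1.56 (SE 0.39; limma adjusted p = 0.0351). Culture against day 0 gave -0.52 (limma adjusted p = 0.338), and -0.34 without culture 16/17A (limma adjusted p = 0.478). It passed there with pool totals (-1.33, limma adjusted p = 0.0198), the deposited values (-1.67, limma adjusted p = 0.00641) and control totals (-1.86, limma adjusted p = 0.00276).

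Magea6 had 2 hairpins in pool 2, both abundant, that moved in opposite directions in culture. TRCN0000112730 was at 32945, 33281 and 25426 CPM at day 0. In culture it was at 117402, 133205 and 93180 CPM, where it took 11.2%, 11.9% and 9.61% of targeting reads and was the 2nd most abundant hairpin of each library. The 3 mice gave 60074, 32991 and 44266 CPM. All cultures lay above all other libraries, and lungs overlapped day 0. It rose in culture by 2.15 (SE 0.12; limma adjusted p = 5.42e-16), the highest change of the 52 hairpins of the pool, and passed under all 17 alternatives tried, at 0.83 with control totals, 0.89 with the deposited values and up to 2.26 elsewhere. Lungs against day 0 gave 0.58 (SE 0.21; limma adjusted p = 0.0657), which passed without lungs replicate B (0.78; limma adjusted p = 0.000245), with control totals (1.12; limma adjusted p = 0.0135) and in DESeq2 (0.62; Benjamini-Hochberg adjusted p = 0.0409). Lungs were lower than culture, at -1.34 (SE 0.25; limma adjusted p = 0.00931), but the difference was 0.29 with control totals (limma adjusted p = 0.440) and -0.37 with the deposited values (limma adjusted p = 0.229). The call was kept under 15 of 17 alternatives. In these mixed cultures control totals count the controls of both pools, which lowers the culture levels on that scale.

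TRCN0000112734, the second Magea6 hairpin of pool 2, was at 26683, 29385 and 29442 CPM at day 0, at 16323, 16553 and 20686 CPM in culture and at 29616, 30941 and 34513 CPM in lungs. The cultures were lowest, and on this scale the mice lay just above day 0 with no overlap. It fell by 0.43 in culture (SE 0.16; limma adjusted p = 0.0183), and lungs lay above culture by 0.84 (SE 0.16; limma adjusted p = 0.0120). Lungs against day 0 gave 0.18 (SE 0.13; limma adjusted p = 0.336). That value was 0.72 with control totals (limma adjusted p = 0.0330) and -0.19 with pool totals (limma adjusted p = 0.333). With control totals culture against day 0 was at -1.75 and lungs against culture at 2.47, and both passed. These totals count the controls of both pools in the mixed cultures, which enlarges both values. The fall in culture was lost without day 0 replicate B or C (-0.44 and -0.42; limma adjusted p = 0.0752 and 0.0550) or culture replicate B (-0.34; limma adjusted p = 0.0969), with DESeq2 size factors (-0.40; limma adjusted p = 0.0537) and without the variance trend (limma adjusted p = 0.0567). These hairpins of 1 gene thus stood at 2.15 and -0.43 in the same cultures. TRCN0000366436, of pool 13, was at 15675, 16428 and 16352 CPM at day 0, and its culture and lung libraries are not analysed here, since every value in their tables is missing.

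All 4 Krtap5-4 hairpins had a change below 0 in lungs, but 1 turned to 0.07 under DESeq2, and 3 of the 4 rested on few reads. TRCN0000098413 of pool 10 was at 64.5, 92.9 and 74.1 CPM at day 0. In 6 cultures the lowest level was 23.1, the median 66.9 and the highest 158 CPM. In lungs it was at 5.54 and 12.7 CPM (25 and 51 reads) in mice A and B, and had 0 reads in 10C, where its day 0 share would give 0.225 reads. Library 10C therefore holds no information on it. Mice A and B lay below every day 0 and culture library. Without 10C it fell by 3.06 in lungs (SE 0.56; limma adjusted p = 0.0127) and was lower than in culture, at -2.68 (SE 0.85; limma adjusted p = 0.0353). With 10C the fitted values were -4.06 (limma adjusted p = 0.0385) and -3.75 (limma adjusted p = 0.0214).

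These calls for TRCN0000098413 depended on the libraries, the scale and the test used. The call against day 0 was lost without day 0 replicate A, B or C (limma adjusted p = 0.126, 0.147 and 0.126) and without lungs replicate A (limma adjusted p = 0.0634), with 10C kept. DESeq2 also lost it, where the value turned to 0.07 (Benjamini-Hochberg adjusted p = 0.988). The call against culture was lost in DESeq2 (-2.04; Benjamini-Hochberg adjusted p = 0.106), with control totals (-3.23; limma adjusted p = 0.0746) and with the deposited values (-3.67; limma adjusted p = 0.0947). It was also lost without culture replicate A, B or C (limma adjusted p = 0.0618, 0.0901 and 0.102), and with either set of cultures alone (limma adjusted p = 0.149 for those mixed with pool 9 and 0.0573 for those mixed with pool 11). Its change in culture was -0.31 (limma adjusted p = 0.691), but it fell and passed with control totals (-1.79, limma adjusted p = 0.0399) and with the deposited values (limma adjusted p = 0.00427). Control totals count the controls of both pools in these mixtures. The cultures mixed with pool 9 gave -1.15 (limma adjusted p = 0.0551) and those mixed with pool 11 gave 0.67 (limma adjusted p = 0.273).

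TRCN0000098414 of Krtap5-4, also in pool 10, was at 184, 235 and 232 CPM at day 0. In cultures its lowest, median and highest levels were 11.9, 68.7 and 155 CPM. In lungs it was at 44.7 and 61.1 CPM in mice A and B, with 0 reads in 10C. All cultures and both of these mice lay below day 0, and they overlapped each other. Without 10C it fell by 2.03 in lungs (SE 0.38; limma adjusted p = 0.0130), and lungs against culture gave 0.05 (SE 1.07; limma adjusted p = 0.980). With 10C the fit gave -3.90 against day 0 (SE 1.78; limma adjusted p = 0.141). With 10C kept, that change passed in edgeR (-2.06; Benjamini-Hochberg adjusted p = 0.00888). It also passed with pool totals (-4.53; limma adjusted p = 0.0448) and on log2(CPM + 10) (-2.68; limma adjusted p = 0.0463). In culture the change was -2.04 (SE 0.86; limma adjusted p = 0.0585). It was -2.70 (limma adjusted p = 0.0160) in cultures mixed with pool 9 and -1.25 (limma adjusted p = 0.199) in those mixed with pool 11. It also passed without culture replicate A (-1.93; limma adjusted p = 0.0373), and with pool totals (-2.59, limma adjusted p = 0.0220), control totals (-3.53, limma adjusted p = 0.00339) and the deposited values (-3.74, limma adjusted p = 0.00155).

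The Krtap5-4 hairpins of pool 18 passed no test under the main settings. TRCN0000436596 was at 388, 435 and 318 CPM at day 0. It was at 44.8, 202 and 1238 CPM in culture and at 6.61, 305 and 90.5 CPM in lungs. Both later arms spanned more than a 10-fold range, and culture C alone lay above day 0. Lungs against day 0 gave -2.76 (SE 1.30; limma adjusted p = 0.141), and from -3.93 to -1.23 without 1 replicate. The value of -3.93, without lungs replicate B, passed (limma adjusted p = 0.0383). Culture gave -0.74 (SE 1.11; limma adjusted p = 0.589), or -1.97 without culture replicate C (limma adjusted p = 0.0442). The sign turned without culture replicate A (0.41), in edgeR (0.38) and in DESeq2 (0.47). TRCN0000440439, the one abundant Krtap5-4 hairpin, was at 7177, 8415 and 7524 CPM at day 0, at 6086, 11592 and 5498 CPM in culture and at 2505, 4797 and 4183 CPM in lungs. All mice lay below all other libraries. The change in lungs was -1.17 (SE 0.39; limma adjusted p = 0.0517), just short of the threshold, which it passed without lungs replicate B or C (-1.34 and -1.33; limma adjusted p = 0.0209 and 0.0317). With all libraries kept it passed with pool totals (-1.44, limma adjusted p = 0.0211), the deposited values (-1.24, limma adjusted p = 0.0411) and DESeq2 size factors (-1.19, limma adjusted p = 0.0468), and in DESeq2 (-1.11, Benjamini-Hochberg adjusted p = 0.00971). It also passed with 1 variance prior over all pools or without the variance trend (limma adjusted p = 0.0473 and 0.0475). Culture gave -0.08 (SE 0.30; limma adjusted p = 0.848).

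Xirp2 held the hairpin with the highest change in lungs of the 18. TRCN0000215801 of pool 11 was at 26925, 26530 and 28012 CPM at day 0 and at 83656, 57106 and 77811 CPM in culture. In lung tumours the levels were 130570, 109900 and 138013 CPM. The arms did not overlap: cultures lay above day 0 and lungs above cultures. In the lungs of mice A, B and C it took 12.0%, 11.6% and 13.8% of targeting reads and ranked 2nd, 3rd and 2nd. The rise was 2.21 in lungs (SE 0.11; limma adjusted p = 0.000170), the 2nd of 52 hairpins, and 1.70 in culture (SE 0.15; limma adjusted p = 7.61e-21, from a fit whose variances were fully shrunk to the trend), the 4th. Lungs lay above culture by 0.59 (SE 0.14; limma adjusted p = 0.00767), which did not pass with 1 variance prior over all pools (limma adjusted p = 0.0693) or without the variance trend (limma adjusted p = 0.128).

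TRCN0000217527 of Xirp2 was carried by the same mice and cultures. It was at 22411, 21768 and 23608 CPM at day 0, at 12817, 9888 and 10727 CPM in culture and at 20616, 14646 and 16477 CPM in lungs. The cultures were lowest, and the mice lay between cultures and day 0. It fell by 0.73 in culture (SE 0.14; limma adjusted p = 2.25e-06, from the same fit with variances fully shrunk to the trend). Lungs gave -0.40 (SE 0.18; limma adjusted p = 0.132), which passed with pool totals (-0.57, limma adjusted p = 0.0313). With control totals, which count the controls of both mixed pools, the fall in culture was larger, at -1.43. Lungs against culture gave 0.41 (SE 0.36, limma adjusted p = 0.421), and passed with control totals (1.30, limma adjusted p = 0.0107), the deposited values (1.07, limma adjusted p = 0.0381) and in DESeq2 (0.69, Benjamini-Hochberg adjusted p = 0.0458). The 2 Xirp2 hairpins of pool 11, at similar levels on day 0, thus stood at 2.21 and -0.40 in lungs and at 1.70 and -0.73 in culture.

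In pool 17 the Xirp2 hairpins also parted. TRCN0000251409 was at 23161, 25161 and 23100 CPM at day 0, at 22910, 22270 and 19138 CPM in culture and at 30826, 92757 and 23718 CPM in lungs. Mouse B stood apart, and the groups of mice and day 0 libraries overlapped. Lungs gave 0.78 (SE 0.52; limma adjusted p = 0.290), 1.07 without 17A (limma adjusted p = 0.242), and 0.18 to 1.23 without 1 replicate. Culture gave 0.05 (limma adjusted p = 0.813), or 0.10 without culture 16/17A (limma adjusted p = 0.645). Under other scalings the culture value turned below 0 and passed, at -0.76 with pool totals (limma adjusted p = 0.000239), -1.10 with the deposited values (limma adjusted p = 4.41e-07) and -1.29 with control totals (limma adjusted p = 2.15e-07). TRCN0000251410 was at 2381, 2634 and 2940 CPM at day 0 and at 600, 650 and 252 CPM in culture. In lungs it was at 2389, 166 and 123 CPM: mouse A was at the level of day 0, and mice B and C were below all cultures. It fell by 2.32 in culture (SE 0.45; limma adjusted p = 0.000149), and fell by 2.40 without culture 16/17A (limma adjusted p = 6.49e-08). Lungs gave -2.85 (SE 1.20; limma adjusted p = 0.112), and -4.11 without 17A (SE 0.38; limma adjusted p = 0.00195). With 17A kept it passed with pool totals (-3.51, limma adjusted p = 0.0408), control totals (-3.54, limma adjusted p = 0.0366) and the deposited values (-3.55, limma adjusted p = 0.0357). It did not pass in edgeR (-1.57, Benjamini-Hochberg adjusted p = 0.344).

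Hairpins against the same gene often did not move together. The 5 genes gave 13 pairs of hairpins in the same pool, whose median difference in log2 fold change was 1.18 in lungs against day 0, 0.99 in culture against day 0 and 1.88 in lungs against culture. Over all genes, same-gene pairs gave 1.31, 1.26 and 1.38, from 711, 771 and 709 pairs. Pairs of hairpins against different genes of a pool gave 1.43, 1.27 and 1.36. In lungs against day 0, both hairpins had the same sign in 7 of the 13 pairs, beside 49.8% of same-gene pairs over all genes and 50.2% of different-gene pairs. In culture the count was also 7 of 13, beside 52.5% and 49.2%, and in lungs against culture it was 6 of 13, beside 50.9% and 49.9%. Without 10C, 17A and culture 16/17A the medians of the 13 pairs were 1.60, 0.99 and 2.18, and the counts were 7, 7 and 5. Pairs share hairpins, so these counts are a description.

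Abundance went with spread between libraries. Hairpins were split by their mean level over the libraries of their pool, and the median SD of log2(CPM + 1) between lung libraries over all hairpins was 1.37 under 1000 CPM, 0.82 from 1000 to 10000 CPM and 0.50 above 10000 CPM. Of the 19 hairpins, the 9 of intermediate level had a median SD of 0.49 and the 5 above 10000 CPM that were read in lungs had 0.25. The 4 under 1000 CPM were TRCN0000098413, TRCN0000098414 and TRCN0000436596 of Krtap5-4 and TRCN0000246364 of Ccdc63. The SDs of the last pair in lungs were 2.72 and 3.55, the second with the 7 reads of 17A, beside pool medians of 0.62 and 0.97. At day 0 the 4 hairpins had SDs of 0.26, 0.20, 0.23 and 0.15. In lungs TRCN0000251410 of Xirp2 and TRCN0000246366 of Ccdc63, both of pool 17, also spread widely, with SDs of 2.35 and 2.18, and the abundant TRCN0000251409 of Xirp2 had 1.04. Abundance also went with the direction of change over all hairpins: the median change in lungs against day 0 was -1.59 under 1000 CPM, -0.67 at the intermediate level and 0.28 above 10000 CPM. For the hairpins described here the same medians were -3.80, -0.90 and 0.58, from 4, 9 and 5 hairpins, and -2.40, -0.90 and 0.58 without 10C and 17A. The part that abundance has in these changes was not tested, and the split uses levels that include the lungs themselves.

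Control hairpins, present in every pool, give the scale of change for hairpins with no target in mouse cells or none among these genes. Over pools 2, 11, 12, 17 and 18, and relative to the median targeting hairpin of the pool, the hairpin against GFP changed in lungs by -0.64 to 0.20 (median -0.36). Non-targeting hairpin 1 changed by -0.15 to 1.30 (median 0.39). Non-targeting hairpin 2 changed by -4.52 to -2.34 (median -2.99), below 0 in 5 of 5 pools. In pool 12 non-targeting hairpin 2 was at -4.52, beside -4.09 for TRCN0000198891 of Spert in the same mice. In the cultures of pool 12, the ones without a second pool, these controls were at 0.07 (GFP), 1.15 and -1.84 against day 0. In pool 10 the values in lungs without library 10C, against the pool median also without it, were -0.49, 1.05 and -1.44. These control hairpins, a part of the 11 in the series, are therefore not all at 0 themselves, and no value of these 5 genes was tested against them.

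As a second yardstick, 21 hairpins against 7 genes that most dividing cells need (Eif5b, Eftud2, Nup133, Utp20, Pak1ip1, Znrd1 and Timeless) had a median of -2.13 in lungs against day 0, where 7 of 21 passed the test (33.3%, beside 33.8% of all hairpins), and -1.45 in culture, where 11 passed (52.4%, beside 60.6% of all). In edgeR 4 and 9 of the 21 passed. These genes serve translation, splicing, nuclear transport, ribosome assembly and DNA replication. The medians of the hairpins against testis, hair and muscle genes were -0.80 and -0.47, and those of all hairpins tested were -0.13 and -0.10. No test of this list was made.

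For each gene, the hairpin with the largest change in lungs was set beside the other targeting hairpins of its pool over all libraries of the pool, by Pearson's r of log2(CPM + 1). The 2 most alike were Fermt1 (0.87) and Slco1c1 (0.83) for TRCN0000098413 of Krtap5-4, over 12 libraries, and Msi2 and Pxdn (both 0.92) for TRCN0000198891 of Spert, over 9. For TRCN0000246364 of Ccdc63 they were Ndufb2 (0.90) and Dlc1 (0.81), and for TRCN0000251410 of Xirp2 they were Sipa1l2 (0.91) and Ccdc141 (0.87), over the 9 libraries of pool 17. By the size of its change in lungs TRCN0000112730 stood for Magea6, and its closest were Cdkn2a (0.95) and Gria3 (0.94). The size of the change in lungs against day 0 was alike for some of these and not for others: Pxdn was at -3.45 and Msi2 at -1.17, beside -4.09 for Spert, and Sipa1l2 was at -0.85, beside -2.85 for Xirp2. Without 10C, Fermt1 had 0.81 and the Slco1c1 hairpin 0.74 over 11 libraries. Without lung 17A and culture 16/17A, r with TRCN0000246364 was 0.05 for Ndufb2 and 0.33 for Dlc1 over 7 libraries, so that likeness rests on these libraries, while Sipa1l2 and Ccdc141 had 0.94 and 0.91 with TRCN0000251410. For Ccdc63 the choice of TRCN0000246364 also rests on 17A, without which TRCN0000246366 had the larger change. The libraries of 1 arm share their change from day 0, so these values describe a common pattern over arms and mice and have no p.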

How the data were processed

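Hairpin sequences were counted in genomic DNA from 158 samples, of which 148 had values. Each table holds a signal per hairpin, deposited by the authors as a normalized hit value. Alignment used BWA 0.5.9, per the submitters' processing notes; how reads were counted and scaled is not stated there. Low values stepped in whole multiples of 1 read, so reads were recovered (27241 of 27241 values came out whole within 0.01 reads, 100%; 6 tables hold enough low values for a strict check of these steps). Repeat runs of a library were summed. Because the deposited unit is a signal and not a count, limma 3.58.1 (trend and robust) in R 4.3.3 was the main test, on log2(CPM + 1) with TMM factors over the arms compared, 1 fit per pool, hairpins with a mean of at least 10 reads, and Benjamini-Hochberg adjustment over all pools. Printed CPM use TMM factors over all libraries of a pool, including 10C in pool 10. Alternatives were edgeR 4.0.16 and DESeq2 1.42.0 on recovered reads, other scalings and left-out libraries. The fitting script was tested on simulated data. All hairpins of the 5 genes are named, and 2 others per gene by the likeness rule given with them. Depth is given with the libraries. Genes, lists and rules were chosen with earlier results of these data known. The culture and lung tables of pool 13 hold missing values throughout and were not analysed here. A second comparison list is not reported here.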

Additional observations from a re-analysis of the deposited data

Results flagged for a closer look

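Reads of these hairpins also appeared in libraries of pools that do not hold them, and for 4 of the 5 genes they exceeded the highest level seen in day 0 libraries of other pools, with a floor of 3 reads. This held in 3 libraries for Krtap5-4, 2 for Magea6, 4 for Spert and 1 for Xirp2, and the highest of each is given. The values are CPM of the whole library and were used in no comparison. Krtap5-4 hairpins reached 17.2 CPM (81 reads) in lung library 17B, beside at most 4.12 at day 0. Spert hairpins reached 27.3 (184 reads) in culture library 16/17A, beside 9.60. Magea6 hairpins reached 88.5 (779 reads) in culture library C of pool 3, beside 62.5, and Xirp2 hairpins 55.5 (492 reads) in lung library 18B, beside 45.1. Ccdc63 hairpins did not exceed their day 0 level of 5.48 in any library of another pool. Libraries 17B and 16/17A are among those with reads of other pools given above. The source of these reads was not tested.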

How the results depend on the processing

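The count of hairpins past the threshold in lungs against day 0 was 5 and became 10 (1 higher, 9 lower) with the total of the pool's targeting hairpins as the scale, where 340 of 891 hairpins passed, 83 of them higher. Leaving out 1 replicate at a time gave 2 to 7. In culture against day 0 the count of 9 became 14 with control totals and 14 with the deposited values, each with 2 higher and 12 lower, where 622 and 631 of 945 hairpins passed. The median of all hairpins in that comparison was -0.10 with TMM, -0.64 with pool totals, -0.99 with control totals and -0.89 with the deposited values. As most cultures were mixtures, control totals there count the controls of 2 pools, which lowers the culture levels on that scale. With replicate letters as a replicate block the counts were 5, 8 and 6 in lungs against day 0, culture against day 0 and lungs against culture. Same-letter libraries had a mean correlation of deviations of 0.04 in lungs against day 0 (over 0.1 in 20 of 49 pairs), 0.12 in culture against day 0 (29 of 59) and 0.05 in lungs against culture (25 of 54), so not every pair was over 0.1 and the letters were not taken to pair samples. The block took the call from TRCN0000098413 in lungs (adjusted p = 0.0812) and from TRCN0000198963 in culture (adjusted p = 0.0710), and gave one to TRCN0000246364 in lungs (adjusted p = 0.0434), all by limma with Benjamini-Hochberg adjustment.

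Of 946 values of single hairpins under an alternative, 812 kept direction and side of the threshold, 41 lost the call, 63 gained one and 30 changed sign. In lungs against day 0 the sign changed for TRCN0000216412 (0.067 with control totals, and -0.30 to 0.063 without 1 lung replicate), TRCN0000098413 (0.068 in DESeq2) and TRCN0000112734 (-0.19 with pool totals). In culture against day 0 it changed for TRCN0000098413 (0.15 in DESeq2, 0.67 in cultures mixed with pool 11), TRCN0000436596 (0.38 in edgeR, 0.47 in DESeq2, -1.97 to 0.41 without 1 culture replicate) and TRCN0000178215 (-0.027 with pool totals). It also changed there for TRCN0000440439 (0.0038 in edgeR, 0.11 in DESeq2, 0.044 with DESeq2 size factors, -0.25 to 0.13 without 1 culture replicate) and TRCN0000251409 (-0.76 with pool totals, -1.29 with control totals, -1.10 with the deposited values, -0.025 to 0.10 without 1 replicate). In lungs against culture it changed for TRCN0000192958 (0.43 with control totals, 0.19 with the deposited values), TRCN0000112730 (0.29 with control totals) and TRCN0000098414 (0.051 without 10C, and -2.84 to 0.051 without 1 lung replicate). TRCN0000251410 changed sign there too (0.80 in edgeR, 0.97 in DESeq2, 0.11 with control totals, -1.88 to 0.32 without 1 lung replicate). The causes were not tested. The 3 scarce Krtap5-4 hairpins had 0 to 1789 reads in lungs, and TRCN0000246364 had 7 in 17A.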
